A study of Mus musculus with 4 samples.

Results

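The genes described here are 9 regulators and markers of paraxial mesoderm, the tissue that forms the somites. Of these, 5 mark the presomitic mesoderm (Tbx6, Msgn1, Mesp1, Mesp2 and Pcdh8) and 4 mark the somites and the tissue about to form them (Meox1, Tcf15, Foxc1 and Foxc2). They were chosen by the gene name of the probe, which gave 11 probes, all bright enough to test, for 9 of 14843 tested genes. Of the 9, 8 encode transcription factors, and Pcdh8 encodes a cell adhesion protein, a protocadherin.

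Mouse embryos that were Cdx2+/-Cdx4-/-, with 1 mutant copy of Cdx2 and no intact Cdx4, were set against wildtype embryos at the stage of 5 or 6 somites. Each RNA came from the posterior ends of a pool of 10 embryos, cut at one axial level with the newest somite boundary as the mark. A mutant and a wildtype RNA were labelled with 2 dyes, Cy3 and Cy5, and hybridised together to each of 4 arrays on 1 slide. Arrays 1 and 2 carry the labels of replicate 1 and of its dye swap, and arrays 3 and 4 those of replicate 2 and of its dye swap. No label says whether the replicates were separate pools.

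The direction of the comparison is not settled by the labels. The log2 ratio of Cy5 to Cy3 for Cdx4 was -2.59, -2.11, 2.82 and 2.42 on arrays 1 to 4, so that the RNA labelled mutant was low in Cdx4 on arrays 1 and 4 and high in it on arrays 2 and 3. The Pearson correlation of Cy5 to Cy3 ratios over all 41174 probes was -0.36 between arrays 1 and 3 and -0.38 between arrays 2 and 4, although each pair shares its labelled dyes. All 4 arrays were therefore turned to run from the RNA low in Cdx4 to the RNA high in Cdx4, called low-Cdx4 and high-Cdx4 RNA below. The low-Cdx4 RNA is the mutant by the labels of arrays 1 and 4 and the wildtype by the labels of arrays 2 and 3, and by the labels of arrays 2 and 3 every sign given here turns round. Cdx2 differed in the same direction as Cdx4, with an aligned log2 ratio of -0.54 ± 0.097, and Cdx1 in the other, with 0.40 ± 0.11 (moderated SE, n = 2).

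Presomitic mesoderm is laid down by the tail bud and is held unsegmented by Wnt and FGF signals until its anterior end forms somites in step with a Notch-driven clock. Tbx6 and Msgn1 act through most of the presomitic mesoderm, Mesp2 sets the next segment boundary near its anterior end, and Meox1, Tcf15 and the Foxc genes act as the somite forms and becomes epithelial. Cdx proteins are homeobox transcription factors needed for growth of the posterior body axis. The study looked for genes changed by the loss of Cdx copies in that growing tissue. In bulk samples such as these, fewer cells of a type and less RNA per cell cannot be told apart.

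Ratios of low-Cdx4 to high-Cdx4 RNA were on average lower for presomitic than for somite genes, but the 2 groups of genes interleaved. Meox1, Tcf15 and Foxc1 were 1.38-fold to 1.88-fold higher in low-Cdx4 than in high-Cdx4 RNA, and of the presomitic genes Mesp1 passed the same test, at 1.48-fold. No member was lower in the low-Cdx4 RNA beyond the test's threshold. In limma, with arrays of the same labelled replicate number averaged (n = 2) and Benjamini-Hochberg adjustment over all tested probes at 0.05, 1 of 5 presomitic and 3 of 4 somite genes were called, all higher. Under both other pairings of the arrays 5 of 5 presomitic and 3 of 4 somite genes were called higher, and the labels do not settle which pairing holds. With arrays averaged by labelled replicate number, 2.94% of all tested genes were called higher and 6.84% in either direction, with 3.91% called lower. Pairing arrays 1 with 3 and 2 with 4 called 21.6% of them higher, and pairing 1 with 4 and 2 with 3 called 29%. The members' median log2 ratio was 0.17 for presomitic and 0.66 for somite genes, beside 0.01 over all 14843 genes.

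**Figure D1:**
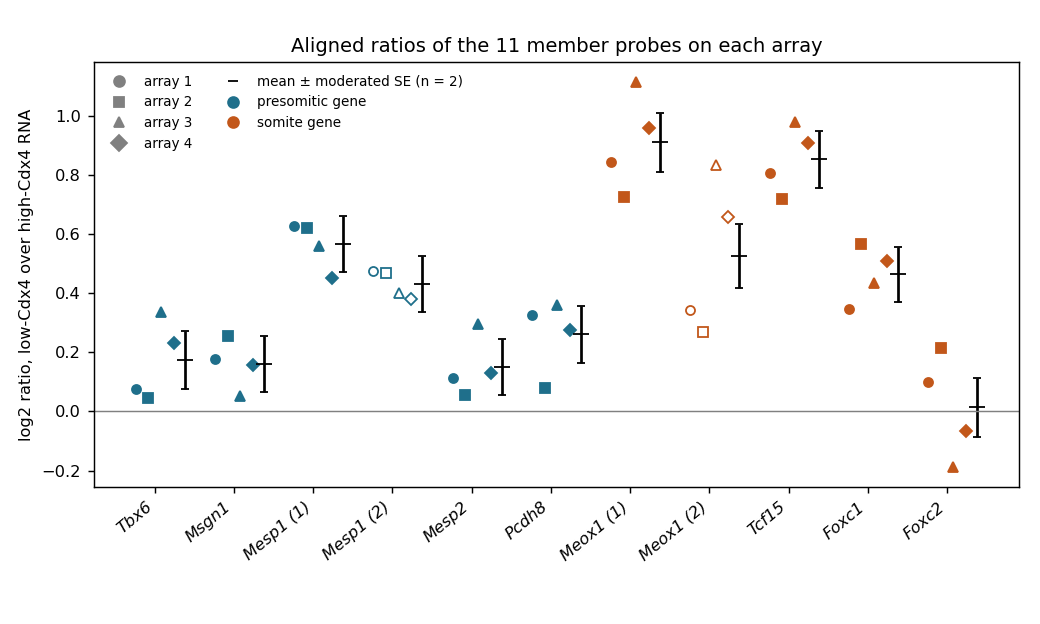
Aligned log2 ratio of low-Cdx4 over high-Cdx4 RNA for each of the 11 member probes, with 1 symbol for each array (circle 1, square 2, triangle 3, diamond 4) and the mean with its moderated SE (n = 2) as a bar. Open symbols are the dimmer of 2 probes of a gene. The brighter probe of Meox1 and the single probe of Tcf15 stand at 0.72 or above on every array, and Foxc2 lies on both sides of 0.

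Tbx6, a T-box factor without which posterior paraxial mesoderm turns to neural tissue in the mouse, gave scanner processed signals (background-subtracted and dye-normalised by the scanner software) of 10380, 9605, 10020 and 9479 in low-Cdx4 RNA on arrays 1 to 4, against 9376, 8993, 8203 and 8284 in high-Cdx4 RNA. The low-Cdx4 signals were all above the high-Cdx4 ones, by a small margin. The log2 ratio was 0.17 ± 0.098 (moderated SE, n = 2; adjusted p = 0.397), with an unadjusted 95% interval of -0.03 to 0.38. Labelled replicate 1 alone gave 0.06 and replicate 2 alone 0.28. After alignment the low-Cdx4 RNA carried Cy5 on arrays 1 and 2 and Cy3 on arrays 3 and 4. A difference between labelled replicates therefore cannot be told apart from one between dyes, for this and every other gene. The Tbx6 probe lies at chr7:126576633-126576692 (mm8, plus strand).

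Msgn1, a basic helix-loop-helix (bHLH) factor that drives progenitors into presomitic mesoderm, gave 394.1, 390, 362.2 and 367 units in low-Cdx4 RNA, against 312.7, 305.3, 350.9 and 325.7 in high-Cdx4 RNA. The groups did not overlap, and the gap was narrowest on array 3. The log2 ratio was 0.16 ± 0.095 (adjusted p = 0.425), with an interval of -0.04 to 0.36 (probe at chr12:11234968-11235027, mm8, minus strand). The mean ratio of Tbx6 exceeded that of Msgn1 by 0.013, and the gap ran from -0.21 to 0.28 on single arrays.

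Mesp1, a bHLH factor of early mesoderm and the anterior presomitic mesoderm, gave 890.4, 704.5, 574.1 and 624.1 units in low-Cdx4 RNA, against 492.9, 387.4, 375.9 and 439.2 in high-Cdx4 RNA. Every low-Cdx4 signal was above every high-Cdx4 one. It was the presomitic gene called higher, with log2 ratios of 0.63, 0.62, 0.56 and 0.45 on arrays 1 to 4 and a mean of 0.56 ± 0.095 (adjusted p = 0.00122). A second probe of the gene gave 0.43 (adjusted p = 0.00946). The probes lie at chr7:79665767-79665826 and chr7:79665964-79666023 (mm8, minus strand).

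Mesp2, the bHLH neighbour of Mesp1 that sets segment boundaries and the anterior identity of each segment, was dim, at 64.39, 56.45, 61.36 and 58.6 units in low-Cdx4 RNA, against 41.63, 28.57, 33.02 and 37.61 in high-Cdx4 RNA. The groups did not overlap, although in the high-Cdx4 RNA the spot was well above background on 3 of 4 arrays. After background correction with an offset and loess, the log2 ratio was 0.15 ± 0.095 (adjusted p = 0.473), with an interval of -0.05 to 0.35 (probe at chr7:79686476-79686535, mm8, plus strand).

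Pcdh8, a protocadherin of the anterior presomitic mesoderm, was also dim, with 77.43, 78.33, 73.2 and 80.69 units in low-Cdx4 RNA, against 35.06, 46.29, 38.02 and 34.77 in high-Cdx4 RNA. Here too every low-Cdx4 signal was above every high-Cdx4 one. The log2 ratio was 0.26 ± 0.095 (adjusted p = 0.136), with an interval of 0.06 to 0.46 (probe at chr14:78501076-78501135, mm8, minus strand).

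Msgn1, Mesp1 and Mesp2 were picked because Mesp1 was called in the pairing by labelled number and its relatives Mesp2 and Msgn1 were not. Under both other pairings all 3 genes were called, and with processed signals Mesp2 was called too. The 250 bases before the start of each of these 3 presomitic genes are shown from RefSeq (GRCm38.p6). Each is written 5′ to 3′ on the gene's strand, and capitals mark matches on either strand to a T-box core (AGGTGT), an E-box (CANNTG), a Cdx core (TTTATG) or a TCF/LEF core (CTTTGA). They are Msgn1 at chr12:11208949-11209198 (minus strand), Mesp1 at chr7:79793591-79793840 (minus strand) and Mesp2 at chr7:79810477-79810726 (plus strand).
Msgn1: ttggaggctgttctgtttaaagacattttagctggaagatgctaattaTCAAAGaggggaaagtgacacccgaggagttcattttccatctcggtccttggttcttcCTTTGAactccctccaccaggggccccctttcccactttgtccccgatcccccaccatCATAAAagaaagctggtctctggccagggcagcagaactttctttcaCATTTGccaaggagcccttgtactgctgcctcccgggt
Mesp1: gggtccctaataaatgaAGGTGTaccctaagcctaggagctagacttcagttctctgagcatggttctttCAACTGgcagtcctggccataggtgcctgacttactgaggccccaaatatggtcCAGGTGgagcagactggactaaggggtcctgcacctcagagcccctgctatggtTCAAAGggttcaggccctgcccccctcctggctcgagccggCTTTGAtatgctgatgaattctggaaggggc
Mesp2: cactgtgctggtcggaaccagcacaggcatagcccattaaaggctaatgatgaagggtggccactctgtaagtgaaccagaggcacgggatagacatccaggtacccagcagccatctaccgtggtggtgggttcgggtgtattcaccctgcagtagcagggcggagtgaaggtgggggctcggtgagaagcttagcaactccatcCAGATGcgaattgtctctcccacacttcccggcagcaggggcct

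Counted from the gene's start, the Msgn1 window held TCF/LEF cores at -202 and -143, a Cdx core at -85 and an E-box at -38. The Mesp1 window held a T-box core at -233, E-boxes at -180 and -126, and TCF/LEF cores at -72 and -31. The Mesp2 window held an E-box at -44. Among 32851 windows of 300 bases, from 250 before to 50 after a start, 13.7% held the T-box core, 72.3% an E-box, 11.9% the Cdx core and 16% the TCF/LEF core. An RBPJ core (TGGGAA, 25.6% of windows) and a TATA core (TATAAA, 13.6%) were searched as well. The RBPJ core matched at -114 in Msgn1 and at 7 in Foxc1, and the TATA core at -43 in Tbx6 and at -30 in Pcdh8. T-box cores also matched after the start, at 8 in Mesp1 and at 30 in Mesp2, as did an E-box at 39 in Mesp2. No 2 matches overlapped. Of the 9 members 6 had a window, and a match is a description of letters, not of a bound site.

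Meox1, a homeobox factor of the somites, gave 584.2, 529, 564.7 and 554.6 units in low-Cdx4 RNA, against 245.2, 211.9, 220.6 and 228.2 in high-Cdx4 RNA. The groups were far apart on every array. Its log2 ratios were 0.84, 0.72, 1.11 and 0.96 on arrays 1 to 4, with a mean of 0.91 ± 0.099 (moderated SE, n = 2; adjusted p = 1.39e-05), rank 17 of 14843 genes from the highest. A dimmer second probe gave lower ratios of 0.34, 0.27, 0.83 and 0.66, and was called too (0.52 ± 0.11; adjusted p = 0.00582). The probes lie at chr11:101693573-101693613 and chr11:101694188-101694247 (mm8, minus strand).

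Tcf15, also called paraxis, is a bHLH factor needed for somites to become epithelial. It gave 817.9, 683.1, 762.1 and 743 units in low-Cdx4 RNA, against 411.5, 341.5, 333.3 and 328.3 in high-Cdx4 RNA, again with no overlap. Its log2 ratios of 0.81, 0.72, 0.98 and 0.91 averaged 0.85 ± 0.096 (adjusted p = 2.22e-05), a 1.81-fold difference and rank 22. The probe lies at chr2:151840388-151840447 (mm8, plus strand).

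Foxc1 and Foxc2 are related forkhead factors that share roles in forming somites in the mouse. Foxc1 gave 966.2, 1077, 988.5 and 959.4 units in low-Cdx4 RNA, against 709.9, 730.7, 688.5 and 649.3 in high-Cdx4 RNA. All 4 low-Cdx4 signals were above the high-Cdx4 ones, and the log2 ratios of 0.35, 0.57, 0.43 and 0.51 averaged 0.46 ± 0.094 (adjusted p = 0.00557; chr13:31816853-31816912, mm8, plus strand). Without array 1 the Foxc1 call was lost (adjusted p = 0.053).

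Foxc2 did not follow its relative. It gave 588.7, 606, 475.2 and 480.1 units in low-Cdx4 RNA, against 521.2, 523.7, 545.4 and 519.5 in high-Cdx4 RNA, and the groups overlapped. The log2 ratio was 0.10 and 0.21 on arrays 1 and 2, where the low-Cdx4 RNA carried Cy5, and -0.19 and -0.07 on arrays 3 and 4, where it carried Cy3. The mean was 0.01 ± 0.100 (adjusted p = 0.976), with an interval of -0.20 to 0.22 that does not reach the Foxc1 mean. Its probe lies at chr8:124004770-124004829 (mm8, plus strand). The difference between the 2 Foxc genes was not itself tested.

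**Figure D2:**
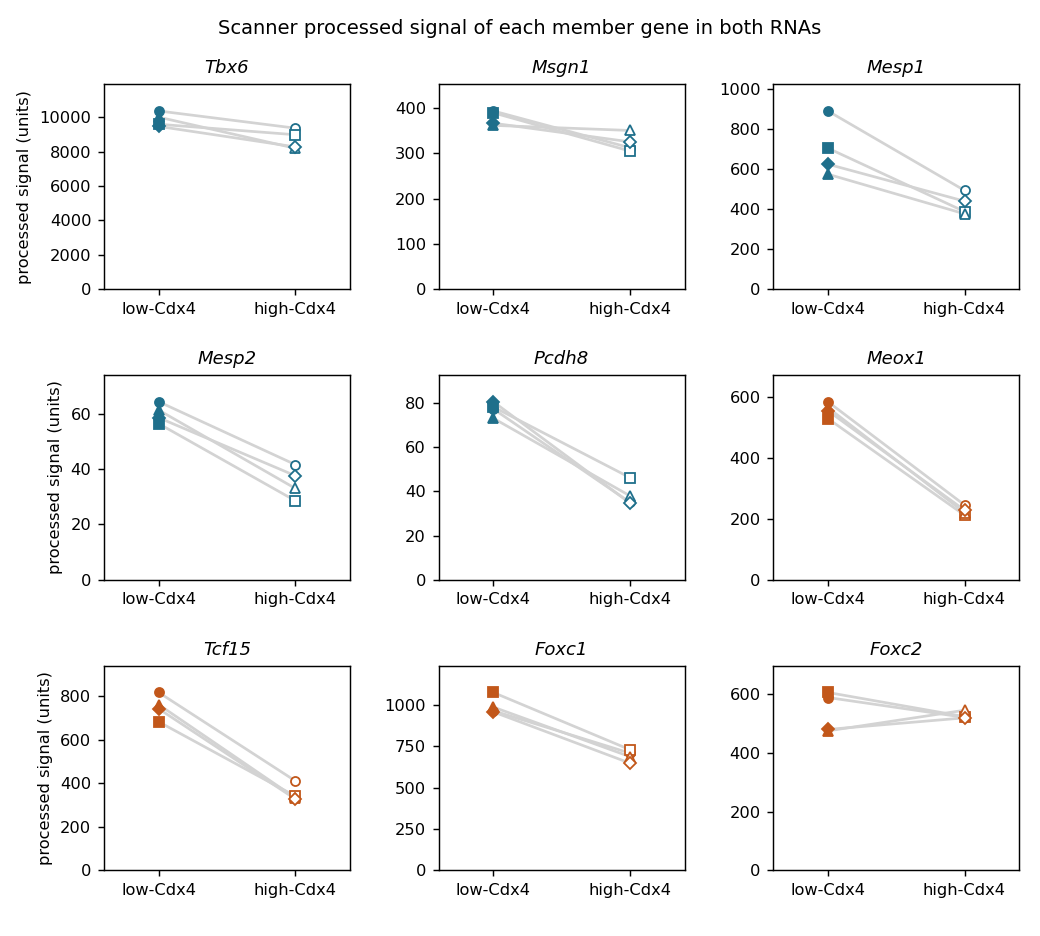
Scanner processed signal of each member's brightest probe in low-Cdx4 RNA (filled symbols, left) and high-Cdx4 RNA (open symbols, right), with a line joining both RNAs of 1 array (circle array 1, square 2, triangle 3, diamond 4), on a linear axis from 0 set for each gene. The RNAs do not overlap for 8 of the 9 genes, and the Foxc2 lines cross.

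Processed signals of both RNAs were thus separate over the 4 arrays, and higher in low-Cdx4 RNA, for 5 of 5 presomitic and 3 of 4 somite genes. Over all tested genes 13% were separate in that direction. The separation depended on the processing. In normalised intensities after normexp and loess, only Meox1 and Tcf15 were separate by their brightest probes, and both RNAs overlapped for all other members. The same probe's log2 ratio was above 0 on all 4 arrays for 8 of 9 members, and for 24.9% of all tested genes.

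Within each group the genes were spread widely. In order of log2 ratio they ran Meox1, Tcf15, Mesp1, Foxc1, Pcdh8, Tbx6, Msgn1, Mesp2 and Foxc2, so a presomitic gene lay above 1 somite gene that was called and all presomitic genes lay above Foxc2. The gap between Tcf15 and Mesp1 was 0.29 ± 0.14 (SE from both genes' moderated errors), and it was positive on 4 of 4 arrays. The gap between Foxc1 and Pcdh8 was 0.20 ± 0.13, also positive on all 4. Neither of these 2 gaps was tested, and the second turned round with processed signals (Pcdh8 1.02, Foxc1 0.52). The other 6 neighbouring gaps were at most 0.14, no more than about 1 SE of the gap, so those neighbours were not told apart by that SE. Of these, the gaps from Meox1 to Tcf15 and from Pcdh8 to Tbx6 were also positive on 4 of 4 arrays. The SE takes both genes' errors as independent, although they were measured on the same arrays. On each array the mean ratio of the presomitic genes minus that of the somite genes was -0.26, -0.34, -0.26 and -0.33. The mean difference was -0.30, with an SD of 0.0049 over the means of the labelled replicates (n = 2). That SD holds for this pairing alone and understates the spread of single arrays, from -0.34 to -0.26. The difference is given as a description with no test because the genes were chosen with earlier results known.

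The size of that difference and the order of the genes changed with the processing. With the scanner's processed signals, which replace both the normexp background correction and the loess normalisation, Pcdh8 had a log2 ratio of 1.02 (limma, adjusted p = 0.00348) and Mesp2 of 0.79 (adjusted p = 0.00742), and both were called. Then 3 of 5 presomitic and 3 of 4 somite genes were called, beside 3.41% of all tested genes called higher, and the presomitic minus somite difference narrowed to -0.15. Meox1, Tcf15 and Mesp1 also had higher ratios, at 1.30, 1.09 and 0.71, and Foxc1 had 0.52. Pcdh8 and Mesp2 then stood above both Mesp1 and Foxc1. Tbx6 had 0.18, Msgn1 0.23 and Foxc2 0.02, none of them called. A smaller normexp offset of 16, with loess kept, left the difference at -0.30, with Pcdh8 at 0.32 and Mesp2 at 0.19. Which of the 2 replaced steps moved the ratios was not tested. After normexp with its offset and loess, the 5th percentile of Cy3 intensity was 133.2, 287.6, 80.73 and 130.8 on arrays 1 to 4. It was nearly the same in Cy5. On that scale Mesp2 in high-Cdx4 RNA stood above it on each array, at 181.9, 344.5, 120.9 and 179. So did Pcdh8, at 166.8, 366.8, 127.1 and 179.4. The 5th percentile of processed Cy3 signals was at most 6.8.

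**Figure D3:**
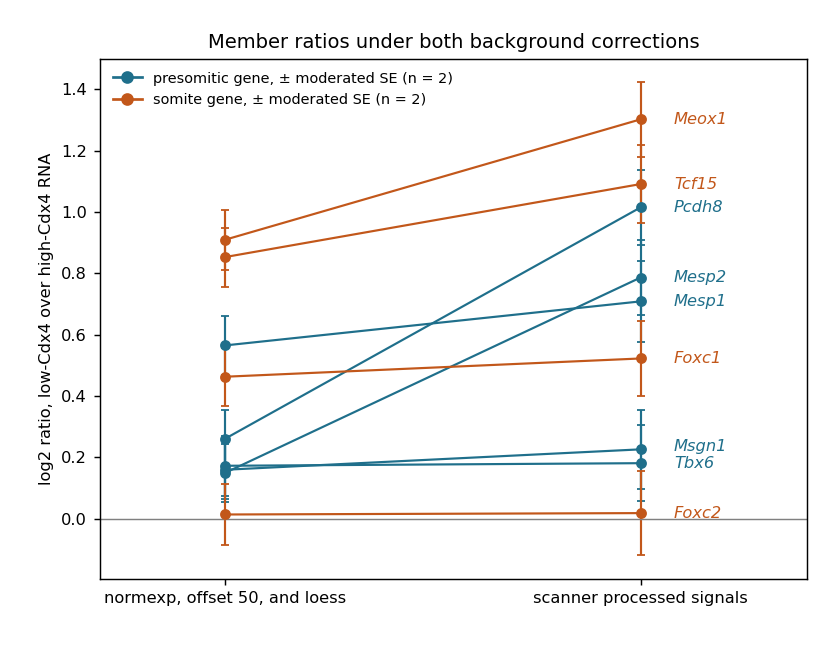
Mean log2 ratio of low-Cdx4 over high-Cdx4 RNA with its moderated SE (n = 2) for the 9 genes after normexp with an offset of 50 and loess (left) and from the scanner's processed signals (right). Pcdh8 and Mesp2 move most, to 1.02 and 0.79, Meox1, Tcf15 and Mesp1 also move up, to 1.30, 1.09 and 0.71, and the other 4 genes lie between 0.02 and 0.52 on the right.

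The pairing of arrays also decided calls. Pairing arrays 1 with 3 and 2 with 4, which balances the dyes and is the pairing to use if 2 arrays carry exchanged labels, called all 5 presomitic genes and the same 3 somite genes higher, with 21.6% of all tested genes called higher. In that fit Pcdh8 had an adjusted p of 5.09e-06, Tbx6 of 0.00369, Msgn1 of 0.00778 and Mesp2 of 0.0139, on unchanged ratios. Limma set infinite prior degrees of freedom there, so every member had the same SE of 0.052. A gene's own spread therefore did not enter these p-values, which follow the size of the ratio alone. Foxc2 was not called (adjusted p = 0.866). Pairing arrays 1 with 4 and 2 with 3 also called 8 members, beside 29% of all tested genes called higher, as did processed signals with arrays 1 with 3 and 2 with 4, beside 22.6%. The choice of pairing cannot be settled from the labels.

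Other genes of both tissues, taken from lists of presomitic and somite genes, moved in part. Of 13 other presomitic genes 10 were tested. Wnt3a, the Wnt ligand of the tail bud, was higher in low-Cdx4 RNA (0.34 ± 0.094; adjusted p = 0.0362), as was Lfng, which modifies Notch in the segmentation clock (0.35 ± 0.099; adjusted p = 0.0414). Cyp26a1, which degrades retinoic acid in the tail bud, was lower, with ratios of -0.84, -0.61, -0.59 and -0.55 and a mean of -0.65 ± 0.096 (adjusted p = 0.000375). The 7 genes not called were Hes7 at 0.19, Dll1 at 0.20, Dll3 at 0.11, T at 0.15, Fgf8 at 0.07, Epha4 at 0.06 and Rspo3 at 0.02. Tbx18 and Cer1 were not well above background, and no probe carried the name Ripply2. The list's median was 0.13. With arrays 1 and 3 and arrays 2 and 4 paired, T, Hes7 and Dll1 were called higher too (adjusted p = 0.0101, 0.00103 and 0.000537), for 5 higher and 1 lower, beside 18.8% of all tested genes called lower in that fit.

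Of 14 other somite genes 7 were tested and 3 were called, all higher in low-Cdx4 RNA. Foxd1, a forkhead factor, had a ratio of 0.52 ± 0.095 (adjusted p = 0.00254). Aldh1a2, which makes retinoic acid in somites and anterior presomitic mesoderm, had 0.47 ± 0.094 (adjusted p = 0.00532), opposite in sign to Cyp26a1. Eya1, a transcriptional coactivator, had 0.40 ± 0.094 (adjusted p = 0.0142). Prrx1 at 0.16, Pax9 at 0.12, Uncx at -0.04 and Twist1 at -0.13 were not called. Pax3, Pax1, Meox2, Nkx3-2, Sim1 and Myf5 were not well above background, and no probe carried the name Ripply1. The median of the 7 was 0.16, beside 0.13 for the other presomitic genes. In the pairing of arrays 1 with 3 and 2 with 4, Prrx1 was called higher (adjusted p = 0.0062) and Twist1 lower (adjusted p = 0.03), for 4 higher and 1 lower. That fit called 21.6% of all tested genes higher and 18.8% lower.

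**Figure D4:**
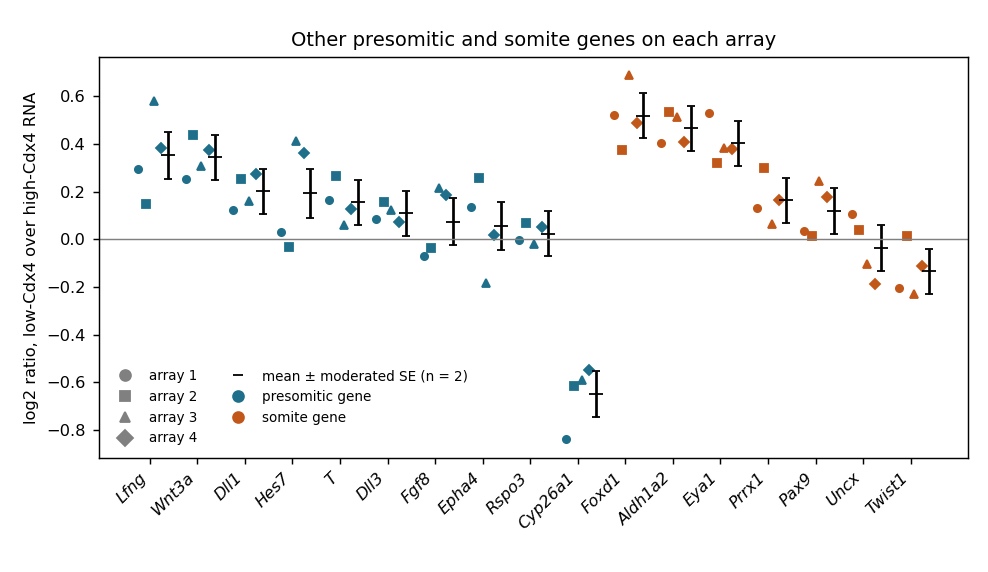
Aligned log2 ratio of low-Cdx4 over high-Cdx4 RNA for the 10 other presomitic and 7 other somite genes tested, with 1 symbol for each array and the mean with its moderated SE (n = 2). Cyp26a1 is the gene well below 0, between -0.84 and -0.55, and Foxd1 and Aldh1a2 are the highest of the somite genes.

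The genes whose 4 ratios lay nearest to a member's, by Euclidean distance over the 4 arrays among 12326 named genes, were as follows. Tcf15 was the nearest to Meox1 (distance 0.149), followed by Fxyd6 (0.153) and Serpinf1 (0.16). For Tcf15 they were Serpinf1 (0.0799), Fxyd6 (0.0817) and Smpd3 (0.113). Foxc1 had Col9a1 (0.0668), Mgme1 (0.0777) and Slc66a2 (0.0812) nearest. Tbx6 had Prr5 (0.0216), Phpt1 (0.0362) and Egr1 (0.0415), and Msgn1 had Taf9 (0.01) and Ess2 (0.014). Likeness to a gene with ratios near 0 is easier to reach, since more genes lie there.

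Markers of some other tissues moved with the same contrast. By labelled number, 2.94% of all tested genes were called higher and 3.91% lower. All 8 of 8 visceral endoderm markers were lower in low-Cdx4 RNA, with summed normalised intensities of 29470 to 37900 in low-Cdx4 RNA and 66030 to 95260 in high-Cdx4 RNA. Of 6 endothelial markers 3 were lower, Kdr at -0.97, Etv2 at -0.72 and Sox18 at -0.43. Cdh5 at -0.23, Pecam1 at -0.05 and Tie1 at -0.04 were not called. The sums over all 6, in which the bright Etv2 and Kdr weigh most, were 5835 to 8077 in low-Cdx4 RNA and 9018 to 12200 in high-Cdx4 RNA. The 3 primitive erythroid genes tested of 5 were higher (4518 to 6644 in low-Cdx4 RNA and 1907 to 2759 in high-Cdx4 RNA), with Gata1 and Klf1 not above background. Of 4 neural plate markers 3 were tested and 2 were higher, with overlapping sums of 1042 to 1844 in low-Cdx4 RNA and 712.8 to 1463 in high-Cdx4 RNA. None of 4 tested heart markers and 5 lateral plate and allantois markers was called by limma in the pairing by labelled number, and with arrays 1 and 3 and arrays 2 and 4 paired Hand1 was called higher (adjusted p = 3.74e-05) and Tbx4 lower (adjusted p = 9.31e-08). None of 5 anterior head markers was well above background. Of 7 posterior axial markers all were measured, with 1 called higher (Wnt3a) and 2 lower (Hoxc6 and Cyp26a1). Among them T, Wnt3a, Fgf8 and Cyp26a1 are the same probes already given with the other presomitic genes. In that second pairing 4 of 6 endothelial markers were lower and, of the posterior axial markers, 3 were higher and 2 lower. Of all tested genes 21.6% were called higher and 18.8% lower in that fit. The part of these tissues in the members' ratios was not tested.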

How the data were processed

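RNA of posterior embryonic tissue was measured on 4 Agilent arrays of 2 colours. Per the file headers, the scanner files hold an intensity per spot in each dye, as mean signal, local background and processed signal. The deposited files also give a log10 ratio, and the authors' series table holds log10 ratios that equal it (sign turned for dye swaps) for 100% of features at a tolerance of 1e-05. Agilent Feature Extraction 9.5.3 is named in the submitters' processing notes. Positions are mm8.

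Background was corrected by normexp (offset 50) and each array normalised by loess in limma 3.58.1, run in R 4.3.3, where control spots had no weight. Control and outlier spots (103 to 167 an array) were left out. A probe was tested if well above background on all 4 arrays in at least 1 RNA (21801 of 41174 probes). Between 50.6% and 56.4% of spots were above background in Cy3, and 58.9% to 64.9% in Cy5, and the number of arrays limits the precision. Each gene was its brightest tested probe. Names came through a RefSeq accession for 23374 probes, a current symbol for 6733, an older symbol for 2919, and the file for 8148.

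Arrays were turned so that Cdx4 was negative on each, averaged by labelled number (n = 2) and fitted with lmFit and eBayes, adjusted by Benjamini-Hochberg at 0.05. Limma set 17.2 prior degrees of freedom beside 1 residual, so the SE is moderated. Named genes are the members, the Cdx family, 2 further lists of presomitic and somite genes, single genes from 8 lists of cell type markers, and the 3 nearest genes to each of 5 members, apart from a few genes that are not reported here. Members and lists were chosen with earlier results of these data known. Since no label says the replicates were separate pools, a p-value here reflects the spread of these arrays alone, possibly only a technical one. On simulated data of 21801 probes, 94 of 100 probes changed by 0.5 (log2) and 100 of 100 changed by 1 were recovered. Each size gave 30 false calls, a larger share of all calls than the 0.05 that the adjustment aims at. Only the pairing by labelled number was simulated. Alternatives were other pairings, ratios as labelled, median centring, processed signals, the authors' table, an offset of 16, no filter on dim probes, the mean of probes and leaving out arrays. Those added after seeing the data were processed signals with the exchange pairing, arrays 1 and 4 only, and arrays 2 and 3 only.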

Additional observations from a re-analysis of the deposited data

How the results depend on the processing

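Of the 9 genes, 4 were called (1 presomitic, 3 somite). Pairing arrays 1 with 3 and 2 with 4 called 8 (5 presomitic), as did pairing 1 with 4 and 2 with 3 and processed signals with the exchange pairing. Processed signals and the authors' table each called 6 (3 presomitic). Ratios as labelled, median centring and no filter on dim probes each called 0 in limma (presomitic 0, somite 0), with 0, 4 and 6 members under an unadjusted p of 0.05. Over all genes, calls were 1016, against 6001 and 7934 in the other pairings, 6496 from processed signals with the exchange pairing, 14 as labelled, 0 with median centring (274 unadjusted), 13 without the filter and 572 and 472 from arrays 1 and 4 or 2 and 3 only. Leaving out 1 array called 160 genes (without array 1), 676 (array 2), 610 (array 3) or 783 (array 4), with 3 to 4 members.

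The presomitic minus somite difference of -0.30 became 0.0054 as labelled, where opposed arrays cancel by construction. It was -0.35 with median centring, -0.15 with processed signals, the authors' table, or processed signals and exchange pairing, -0.30 with an offset of 16, -0.26 with the mean of probes, -0.29 from arrays 1 and 4, -0.30 from arrays 2 and 3, and -0.32 to -0.28 when arrays or replicates were left out. As labelled, ratios turned to -0.037 (Foxc1), -0.0100 (Meox1), -0.026 (Mesp1), -0.028 (Mesp2) and -0.018 (Tbx6). Foxc2 ranged from -0.13 to 0.16 when an array or replicate was left out (-0.015 without array 2, -0.017 without array 4). Without replicate 1 or 2, Tbx6 was 0.28 or 0.06, Msgn1 0.10 or 0.22, Mesp2 0.21 or 0.08 and Pcdh8 0.32 or 0.20. Median centring moved the median of all genes to 0.28, against which Mesp2 was -0.12, Foxc2 -0.03, Pcdh8 0.02 and Tbx6 0.42, and the other members 0.10 to 0.87. Causes of the other changes were not tested. Each ratio already pairs the 2 RNAs of 1 array, so no further replicate block was fitted. Signal over background limits Mesp2 and Pcdh8, whose net scanner signals of 58.1 to 124.4 lay near their backgrounds of 57 to 83.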
